A study of Mus musculus with 6 samples.

Results

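The 40 genes described here make, move or sense sterols, or make fatty acids under the same transcription factors. They were taken by symbol from the table of counts, which holds 24348 genes, and all 40 were present and passed the filter on low counts that left 19925 genes for testing. The list was drawn up with the difference between the treatments in these libraries already known, so the differences given below for its members are a description and support nothing by themselves. RNA was sequenced from fibroblasts sorted from the synovium, the lining tissue of the joint, of adult wild-type C57BL/6 mice. One group of 3 libraries came from mice given immune complexes (IC), here ovalbumin bound to rabbit antibody against it, into a tail vein. The other group of 3 libraries came from mice given vehicle by the same route. The sources used here give neither the time from injection to sorting for these libraries nor the gate used for sorting nor what the vehicle held, and do not state whether a library is 1 mouse, so p-values measure the spread between these libraries only. The comparison addresses whether fibroblasts respond to circulating IC.

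Cells make cholesterol from acetyl-CoA in a long chain of enzymes, and the genes for nearly all of them are switched on by SREBP transcription factors, encoded by Srebf1 and Srebf2. SREBPs are held in the endoplasmic reticulum with the escort protein SCAP while sterols are plentiful, through the INSIG proteins, and are released and cut free when sterols run low. Oxysterols, which are oxidised forms of cholesterol, activate the nuclear receptors LXRα and LXRβ, whose targets export cholesterol and degrade lipoprotein receptors. SREBPs and LXRs both act on genes of fatty acid synthesis, which fibroblasts use for membranes.

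Among genes of this kind, promoters often hold a CCAAT box, bound by NF-Y, and a GC box, bound by Sp1, close to the element that SREBPs bind. RefSeq promoter windows (GRCm38.p6, 250 bases before to 50 bases after the annotated start) were at hand for 32 of the 40 genes. Each window was searched on both strands. The CCAAT box was searched by those letters, and the GC box as GGGCGG. The E-box, which SREBPs can also bind, was searched as CACGTG. The sterol regulatory element was searched whole, as TCACNCCAC, and by the part nested in it, CACNCCAC. The CCAAT box stood in the windows of 24 of the 32 members (75.0%), against 42.3% of 12282 tested genes with a window. It stood in those of 15 of the 16 members listed for cholesterol synthesis (93.8%), a list that includes Ggps1 beside that path. The exception was Acat2. The GC box stood in 24 of 32 members (75.0%) against 65.3% of tested genes, and the E-box in 6 of 32 (18.8%) against 11.0%. The whole sterol regulatory element was found in 1 of 32 members (3.12%), Hmgcs1, against 1.51% of tested genes, and its nested part in 3 of 32 (9.38%), Acat2, Hmgcs1 and Insig1, against 7.65%. The windows below are those that hold a searched motif among members called higher after IC, from Lss and Srebf1. Hmgcs1 follows, added after the search because it holds the whole element. Each is read in the direction of its gene, and capitals mark the CCAAT box and the GC box on either strand and, in Hmgcs1, the sterol regulatory element. These letters are matches and not shown to be bound. Elements with other letters, or outside the windows, were not searched for, so a gene without a match may still have one.
Lss, chr10:76531355-76531654, plus strand: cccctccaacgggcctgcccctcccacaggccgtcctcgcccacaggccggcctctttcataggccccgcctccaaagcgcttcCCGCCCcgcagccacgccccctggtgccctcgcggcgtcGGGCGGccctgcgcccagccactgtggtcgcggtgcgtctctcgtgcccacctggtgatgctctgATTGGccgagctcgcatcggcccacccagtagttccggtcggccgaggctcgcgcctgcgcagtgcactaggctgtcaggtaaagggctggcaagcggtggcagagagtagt
Srebf1 innermost start, chr11:60210422-60210721, minus strand: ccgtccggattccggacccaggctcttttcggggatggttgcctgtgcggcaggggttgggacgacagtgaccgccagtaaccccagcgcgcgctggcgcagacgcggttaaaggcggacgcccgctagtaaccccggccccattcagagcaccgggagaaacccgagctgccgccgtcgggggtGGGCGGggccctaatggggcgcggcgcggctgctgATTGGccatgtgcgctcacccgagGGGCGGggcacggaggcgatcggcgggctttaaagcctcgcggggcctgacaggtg
Srebf1 middle start, chr11:60220578-60220877, minus strand: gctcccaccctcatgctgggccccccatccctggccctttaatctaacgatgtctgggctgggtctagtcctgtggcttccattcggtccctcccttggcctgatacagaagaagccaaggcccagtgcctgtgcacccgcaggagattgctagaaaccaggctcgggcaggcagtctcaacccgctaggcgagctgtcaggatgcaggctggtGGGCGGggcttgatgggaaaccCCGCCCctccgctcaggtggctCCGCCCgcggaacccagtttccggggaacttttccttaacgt
Srebf1 outermost start, chr11:60222532-60222831, minus strand: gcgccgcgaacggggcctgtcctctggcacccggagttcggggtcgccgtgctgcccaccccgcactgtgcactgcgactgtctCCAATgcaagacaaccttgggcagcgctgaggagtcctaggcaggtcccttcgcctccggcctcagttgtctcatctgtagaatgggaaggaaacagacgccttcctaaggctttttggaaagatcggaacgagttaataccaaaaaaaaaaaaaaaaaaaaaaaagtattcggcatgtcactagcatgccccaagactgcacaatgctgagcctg
Hmgcs1, chr13:119690101-119690400, plus strand: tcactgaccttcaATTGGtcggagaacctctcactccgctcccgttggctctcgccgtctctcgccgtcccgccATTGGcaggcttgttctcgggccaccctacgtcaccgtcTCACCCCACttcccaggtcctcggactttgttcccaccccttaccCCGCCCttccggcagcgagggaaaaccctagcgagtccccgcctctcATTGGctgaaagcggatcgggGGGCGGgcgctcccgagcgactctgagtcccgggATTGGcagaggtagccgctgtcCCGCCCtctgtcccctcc
Lss has a CCAAT box on the other strand, 62 bases before its start, and 2 GC boxes farther out. For Srebf1, the windows of 3 annotated starts held a searched motif, and a CCAAT box stands in 2 of these windows. The window of the innermost start holds its CCAAT box 30 bases before the start, between 2 GC boxes. Hmgcs1 holds 4 CCAAT boxes, all on the other strand, and its sterol regulatory element begins 137 bases before the start.

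The members differed widely in level. Levels were taken per length of the merged exons of a gene, as TPM, which are scaled to the same sum in each library. Member means over the 6 libraries ran from 3.19 TPM for Fdps to 405 TPM for Scd2. The order at the top was Scd2, Scd1 (388 TPM), Insig1 (252 TPM), Fasn (221 TPM), Acly (220 TPM), Hmgcs1 (190.3 TPM), Abca1 (188 TPM) and Srebf2 (157 TPM). Each library of Scd1, at 361 to 414 TPM, stood above each library of Insig1, at 210 to 333 TPM. Other neighbours in that order overlapped, with Scd2 at 313 to 557 TPM and Hmgcs1 at 143 to 301 TPM. Both stearoyl-CoA desaturases, Scd2 and Scd1, stood above 98.5% and 98.4% of genes in mean TPM. The enzymes from squalene synthesis onward were mostly between 7.72 TPM (Tm7sf2) and 44.5 TPM (Sc5d), with Cyp51 above them at 68.9 TPM. Srebf2 and Srebf1 transcripts were at 157 and 122 TPM, with ranges of 141 to 183 and 102 to 145 TPM. The lowest level, that of Fdps, is uncertain. Of the 50-base words of its longest coding transcript, 86.4% also occur in other genes. Fdps also shares 1124 exon bases on the same strand with Gm43738. Its merged length of 4208 bases, far above the 1333 distinct words of that transcript, lowers its TPM as well. Merged lengths were also long beside such words in Lss (10787 and 4618), Tm7sf2 (4403 and 1449) and Msmo1 (6144 and 1995). Words shared with other genes were 52.6% in Acaca, 45.9% in Acat2 (with Acat3) and 21.3% in Idi1, and 10.9% or less in the other 36 members.

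**Figure D1:**
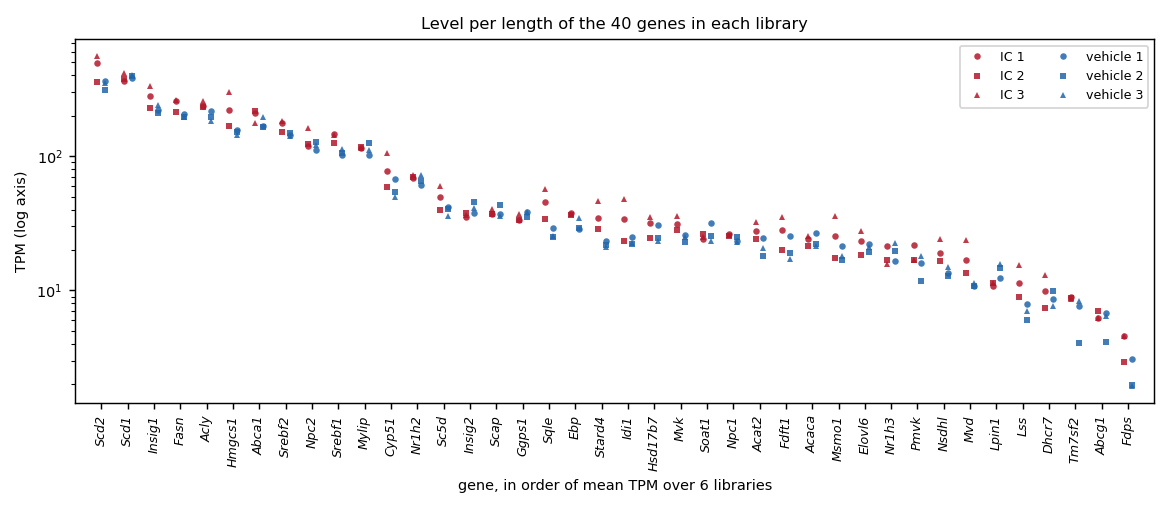
Level of each of the 40 genes in TPM (vertical log axis) in each library, with genes ordered along the horizontal axis by their mean over 6 libraries. Red symbols are IC and blue symbols vehicle libraries, and the shape gives the replicate. Scd2 and Scd1 lie highest and Fdps lowest.

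Cells of other kinds could add lipid genes to a sorted sample, so marker lists were read in every library as summed CPM, which are counts scaled to the library total. All 10 fibroblast markers were present, at 44679 to 46348 CPM after IC and 45550 to 55408 CPM after vehicle, with Prg4 called higher and Col3a1, Lum and Clic5 lower. The 9 adipocyte markers in the table summed to 30.4 to 47.7 CPM after IC and 36.96 to 45.9 CPM after vehicle, and the defining genes Adipoq and Plin1 were at 0.598 and 0.599 CPM or less in each library. Schwann cell markers, whose cells make much cholesterol for myelin, summed to 248 to 376 CPM after IC and 271 to 303 CPM after vehicle, and none was called. Macrophage markers summed to 31.7 to 48.9 and 39.0 to 50.5 CPM, without Ptprc, Adgre1, Cd163, C1qa and Tyrobp, which have no row in the table used here. The summed endothelial and mural markers were lower in each IC library than in each vehicle library, at 203 to 272 against 286 to 327 CPM and 407 to 504 against 508 to 552 CPM, and 3 of 8 and 1 of 7 of their genes were called lower. Skeletal muscle markers overlapped between groups, at 14.2 to 28.0 against 24.6 to 57.4 CPM, and 2 of 9 were called lower. IC 3 had the lowest sum of the 3 IC libraries in each list except fibroblasts, in which it had the highest. What part these shifts have in the values below was not tested, and fewer cells of a type cannot be told apart from less RNA per cell.

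**Figure D2:**
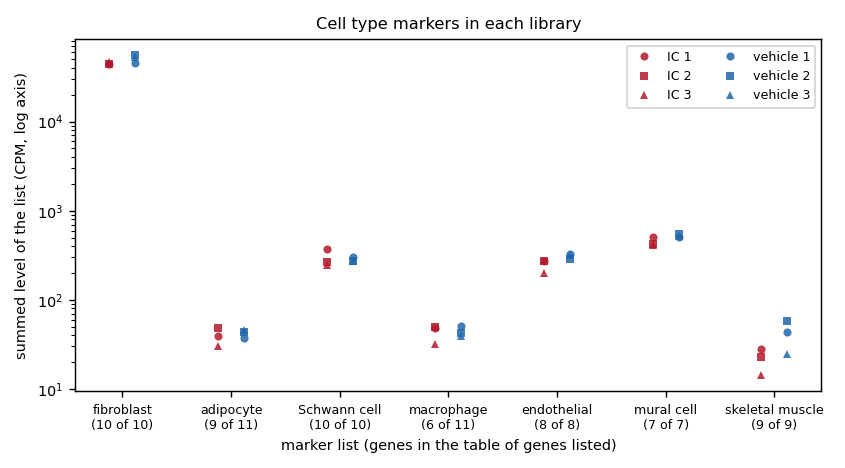
Summed level of each cell type marker list in CPM (vertical log axis) in each library, with the number of listed genes found in the table under each name. Fibroblast markers stand at 44679 CPM or more in each library and all other lists at 552 CPM or less.

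DESeq2 called 5 of the 40 members higher after IC at a Benjamini-Hochberg adjusted p under 0.05, Sqle, Lss, Srebf1, Stard4 and Scd2, and 0 lower. Under its default filters, 3870 of the genes tested had no adjusted p and count as not called. Over all 19925 genes tested, 1.03% were called higher and 1.07% lower. The contrast is the one known when the members were listed, so nothing is read from these shares. The quasi-likelihood test of edgeR called 0 members, with 0.186% of all genes called in either direction, and its smallest adjusted p among the members was 0.0887, for Sqle. At an unadjusted p under 0.05, DESeq2 marked 20 members and edgeR 19, and over all genes tested they marked 1952 (9.80%) and 1920. limma-voom also called 0 members, with 19 at an unadjusted p under 0.05, and 2050 over all genes. The fitted log2 fold change was above 0 in 33 members and below 0 in 7, and the median over the members was 0.26, beside -0.0019 over all genes tested. The normalized counts of the 3 IC libraries all lay above those of the 3 vehicle libraries in 12 members and all below in 2, against 8.09% and 7.67% of all genes.

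**Figure D3:**
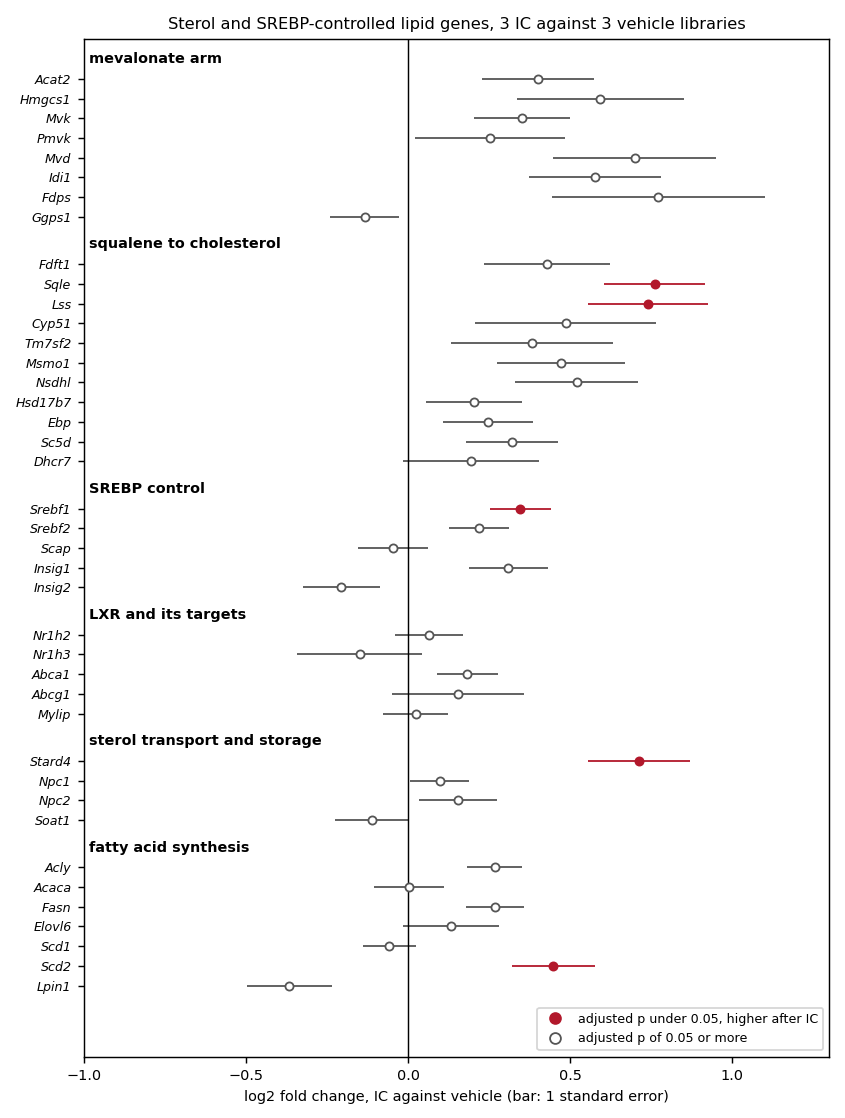
Log2 fold change of IC against vehicle for the 40 genes, grouped by role, with bars of 1 standard error from DESeq2 on 3 libraries per group. Filled red points are the 5 genes at an adjusted p under 0.05, and open points are the other 35. Genes listed for cholesterol synthesis lie mostly to the right of 0, with Ggps1 to the left.

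The first arm of cholesterol synthesis runs from acetyl-CoA through mevalonate to the isoprenoids. Of its 8 members, 0 were called, 6 had an unadjusted p under 0.05 and a positive fold change, as did 4.91% of all genes tested, and the median log2 fold change was 0.49. Hmgcs1, which makes HMG-CoA, had 11272, 8381 and 15563 normalized counts in IC 1, 2 and 3, against 7940, 7981 and 7422 in vehicle 1, 2 and 3. Its groups did not overlap, but IC 2 was close to the vehicle libraries, and the log2 fold change of 0.59 ± 0.258 (SE) had a DESeq2 adjusted p of 0.290. Idi1, which isomerises the isoprenoid unit, had 1315, 888 and 1882 normalized counts after IC against 958, 893 and 890.0 after vehicle. Here IC 2 lay below all vehicle libraries while IC 3 was above each of them, so the groups overlapped.

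Mvk and Mvd, a kinase and a decarboxylase of mevalonate, had IC libraries above all vehicle libraries, at 823 to 1081 against 701 to 766 and at 273 to 495 against 219 to 239.5 normalized counts. Acat2, Pmvk and Fdps overlapped between groups, with log2 fold changes of 0.40, 0.25 and 0.77. Ggps1 makes geranylgeranyl pyrophosphate for protein prenylation, off the path to sterols. It was the member of this arm with a negative log2 fold change, -0.13 ± 0.106, with 1758, 1709 and 1962 normalized counts after IC against 1990, 1910 and 2059 after vehicle.

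The second arm turns farnesyl units into squalene and then into cholesterol. All 11 members had a positive log2 fold change, with a median of 0.43, and 2 were called. Sqle (chromosome 15, 59315077 to 59331192, GRCm38) encodes squalene epoxidase, a rate-controlling enzyme of this arm. It had 2778, 2070 and 3554 normalized counts in IC 1, 2 and 3 against 1788, 1575 and 1598 in vehicle 1, 2 and 3. Each IC library was above each vehicle library, and IC 3 was the highest. The means were 2801 ± 742 and 1654 ± 117 (SD, n = 3 each), and the log2 fold change was 0.76 ± 0.157 (SE, DESeq2 adjusted p = 0.000256). Sqle was called in all 6 fits that left out 1 library, at DESeq2 adjusted p values of 8.59e-08 to 0.0273.

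Lss (chromosome 10, 76531588 to 76557138) encodes lanosterol synthase, which folds squalene epoxide into the first sterol. It had 1353, 1043 and 1868 normalized counts after IC against 945, 746 and 863 after vehicle, again without overlap and with IC 3 highest. The log2 fold change was 0.74 ± 0.186 (SE, DESeq2 adjusted p = 0.00543). The call was lost without IC 3 (log2 fold change 0.49, adjusted p 0.157), vehicle 2 (0.107) or vehicle 3 (0.0878).

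The enzyme with the highest level of this arm, the lanosterol demethylase Cyp51, had 3785, 2858 and 5243 normalized counts after IC against 3278, 2734 and 2473 after vehicle. IC 2 lay within the vehicle range, and the DESeq2 adjusted p was 0.549 at a log2 fold change of 0.49. Sc5d, a sterol desaturase, had 2670, 2104 and 3279 against 2229, 2232 and 1986, with IC 2 again among the vehicle libraries. Nsdhl, Ebp and Tm7sf2, which act between lanosterol and cholesterol, had IC libraries above all vehicle libraries without being called, at log2 fold changes of 0.52, 0.25 and 0.38. The vehicle libraries of Tm7sf2 were themselves far apart, at 368, 202 and 417 normalized counts, and it shares 532 exon bases on the same strand with Vps51. Fdft1, Msmo1, Hsd17b7 and Dhcr7 overlapped between groups, with log2 fold changes of 0.43, 0.47, 0.20 and 0.19. The opposite-strand gene Ctsb overlaps 18.3% of the exon bases of Fdft1, and the use of strand in counting is not given in the sources used here.

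Across the 19 genes of both arms, the 3 IC libraries were unlike each other. IC 2 was the lowest IC library in 19 of 19 genes, against 31.8% of all genes tested, and the order IC 3, IC 1, IC 2 from high to low occurred in 16 of 19 (84.2%), against 18.4%. The mean log2 ratio to the vehicle mean was 0.70 in IC 3, 0.43 in IC 1 and 0.083 in IC 2, and 0.093, -0.11 and -0.015 in vehicle 1, 2 and 3. IC 2 thus stood, on average over these genes, no higher than vehicle 1. In 11 of the 19 genes IC 2 was not above the highest vehicle library, a smaller share than over all genes tested, where this held for 14919 of 19925. The coefficient of variation among IC libraries exceeded that among vehicle libraries in 15 of 19 genes (78.9%), against 41.9% of all genes tested, with medians of 24.5% and 11.0%. These shares come from the same libraries with which the members were listed and were not tested.

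**Figure D4:**
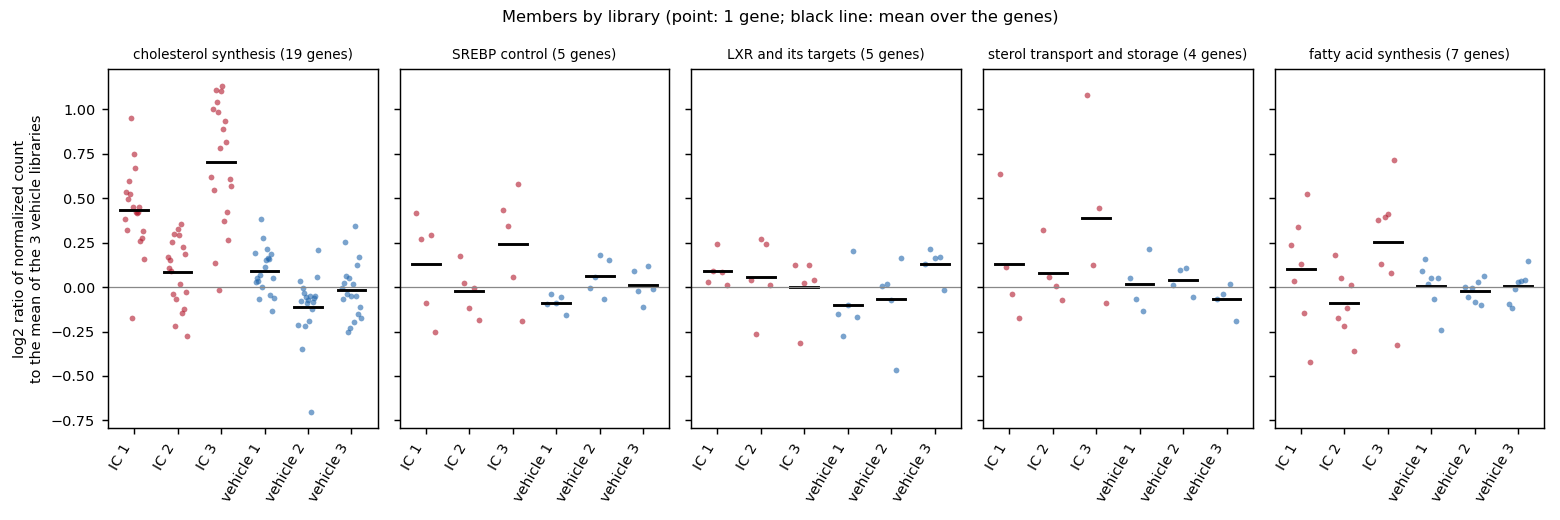
Log2 ratio of each gene's normalized count to its mean over the 3 vehicle libraries (vertical axis) in each library (horizontal axis), by role, with the mean over the genes as a black line. For the 19 genes listed for cholesterol synthesis, Ggps1 included, the lines stand at 0.43, 0.083 and 0.70 in IC 1, 2 and 3. For LXR and its targets they stay between -0.099 and 0.13.

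Of the 5 genes that control SREBP, Srebf1 (chromosome 11, 60199089 to 60222581) was called. It had 9028, 7636 and 9156 normalized counts after IC against 6343, 6758 and 7210 after vehicle, without overlap, and IC 2 was nearest to the vehicle libraries. The log2 fold change was 0.35 ± 0.094 (SE, DESeq2 adjusted p = 0.0135). Of the 6 fits that left out 1 library, those without IC 2 and without vehicle 3 kept the call, and the DESeq2 adjusted p was 0.148, 0.125, 0.0611 and 0.0773 without IC 1, IC 3, vehicle 1 and vehicle 2. The counts do not separate the isoforms that its different starts give.

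Srebf2, the SREBP gene tied mainly to cholesterol synthesis, had 14096, 11837 and 14795 normalized counts after IC against 11348, 12162 and 11499 after vehicle. IC 2 lay among the vehicle libraries, and the log2 fold change of 0.22 ± 0.092 had a DESeq2 adjusted p of 0.254. Insig1, itself an SREBP target that retains SCAP, had 9532, 7747 and 11618 against 7468, 7410 and 8448, with the same place for IC 2 and a log2 fold change of 0.31 ± 0.122. Insig2, which also retains SCAP, had IC libraries all below the vehicle libraries, at 1360 to 1424 against 1450 to 1795, with a log2 fold change of -0.21 and a DESeq2 adjusted p of 0.549. Scap had a log2 fold change of -0.05 ± 0.108, and its groups overlapped.

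None of the 5 genes of LXR and its targets was called, and none reached an unadjusted p under 0.05 with DESeq2 or edgeR. Abca1, the pump that loads cholesterol onto apolipoproteins, had 24164, 24562 and 20698 normalized counts after IC against 19000, 19372 and 22815 after vehicle. IC 3, the highest library for sterol synthesis, was the lowest IC library for Abca1 and lay within the vehicle range. Mylip, a ligase that marks lipoprotein receptors for degradation, had 4129, 4127 and 4210 against 3638, 4586 and 4044, so the IC libraries sat inside the vehicle range. Nr1h2, which encodes LXRβ, had 2544, 2565 and 2725 against 2248, 2513 and 2736, at a log2 fold change of 0.06 ± 0.104. Nr1h3, which encodes LXRα, and the exporter Abcg1 had log2 fold changes of -0.15 ± 0.192 and 0.15 ± 0.203, both with overlapping groups. With standard errors of that size, changes of this order were not detectable in either gene.

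Stard4 carries cholesterol between membranes in the cytosol and is an SREBP target. It had 2150, 1733 and 2926 normalized counts after IC against 1437, 1397 and 1323 after vehicle, with no overlap and IC 3 highest. The log2 fold change was 0.71 ± 0.158 (SE, DESeq2 adjusted p = 0.000918), and the call was lost without vehicle 3, at an adjusted p of 0.0520. Its range over the left-out libraries was 0.49 without IC 3 to 0.87 without IC 2.

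The other members that move or store sterols showed smaller differences. Npc2, which with Npc1 passes cholesterol out of lysosomes, had 7117, 7329 and 9946 normalized counts after IC against 6654, 7880 and 7393 after vehicle, with IC 3 alone above the rest. Soat1, which esterifies cholesterol for storage, had 2607, 2803 and 2773 against 3422, 2832 and 2583, at a log2 fold change of -0.11. Npc1 overlapped between groups at a log2 fold change of 0.10 ± 0.091.

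Fatty acid synthesis was represented by 7 members, of which Scd2 (chromosome 19, 44293674 to 44306864) was called. Scd2 makes monounsaturated fatty acids and had 30030, 21071 and 34288 normalized counts after IC against 21621, 19481 and 21478 after vehicle. IC 2 lay within the vehicle range, with IC 1 and IC 3 above it. The log2 fold change was 0.45 ± 0.129 (SE, DESeq2 adjusted p = 0.0265). Among the fits with 1 library left out Scd2 was called only in that without IC 2, and DESeq2 gave adjusted p values of 0.202 to 0.708 in the other 5. Scd1, the neighbouring gene of the same function, had overlapping groups, with 19513, 19914 and 22823 normalized counts against 20652, 22019 and 22138 and a log2 fold change of -0.06 ± 0.082. The difference between the desaturases was not tested, and 4.01% of the words of Scd2 also occur in Scd1, Scd3 or Scd4.

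Fasn, the fatty acid synthase, had 30956, 25366 and 32259 normalized counts after IC against 24809, 24437 and 24331 after vehicle. The vehicle libraries were close together, each IC library was above them, and the log2 fold change of 0.27 ± 0.091 had a DESeq2 adjusted p of 0.0919. Acly, which supplies cytosolic acetyl-CoA to both fatty acids and sterols, also had no overlap, at 13289 to 15256 against 10990 to 12482, with a log2 fold change of 0.27 ± 0.084 and a DESeq2 adjusted p of 0.0550. Acaca and Elovl6 overlapped between groups, at log2 fold changes of 0.00 and 0.13. Lpin1, a phosphatidate phosphatase of glycerolipid synthesis, had the most negative value of the 40 members, with 1154 to 1230 after IC against 1305 to 1711 after vehicle and a log2 fold change of -0.37 ± 0.131, at a DESeq2 adjusted p of 0.124.

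**Figure D5:**
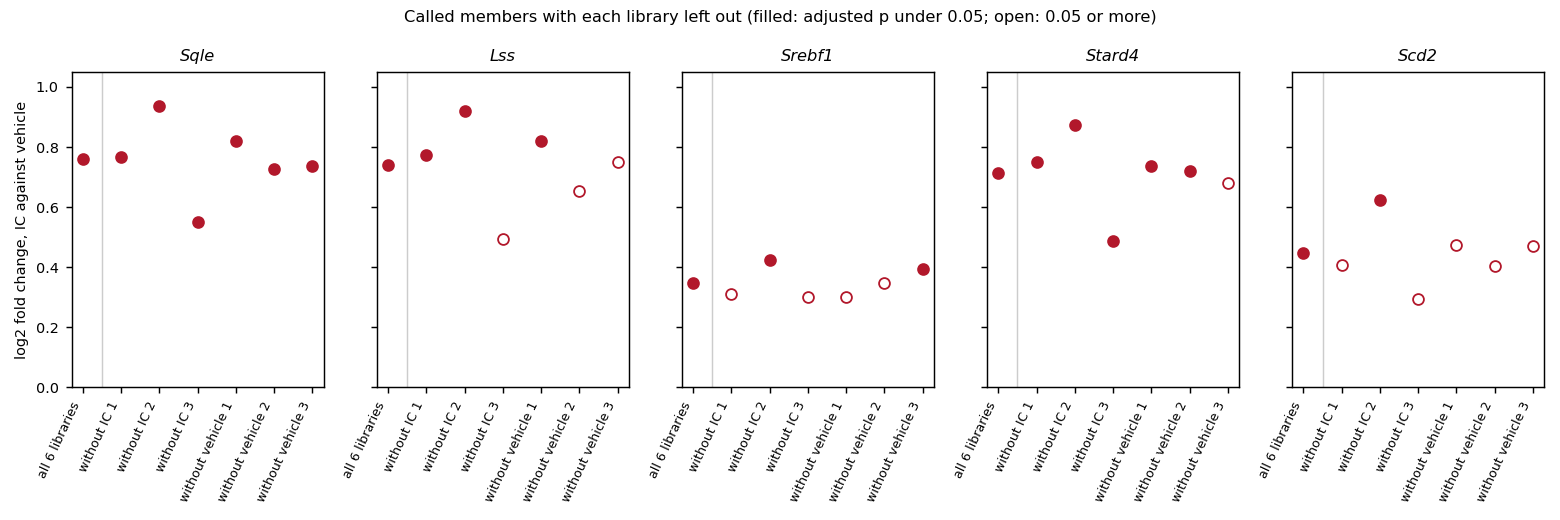
Log2 fold change of IC against vehicle (vertical axis) of the 5 called genes with all 6 libraries and with each library left out in turn (horizontal axis), filled where the adjusted p of DESeq2 is under 0.05. Each gene has its highest value without IC 2, and Sqle alone is filled at every position.

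Leaving out 1 library changed how many members were called more than any choice of scaling or filter did. Without IC 2, 14 members were called higher, the 5 above with Hmgcs1, Mvd, Idi1, Cyp51, Msmo1, Sc5d, Srebf2, Insig1 and Fasn. The median log2 fold change of the members was then 0.35, and 149 of all 19925 genes tested were called higher. Without IC 3, 2 members and 124 of all genes were called higher, and the median of the members was 0.18. Without vehicle 1, 4 members were called higher, among them Acly, and Lpin1 was called lower. Srebf1 and Scd2 were not called in that fit, which called 328 genes higher and 343 lower in all. Without IC 1, vehicle 2 or vehicle 3, 3, 2 and 2 members were called higher, beside 152, 155 and 149 of all genes.

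Other genes of the same pathways were read from lists by role that hold 81 genes, of which 80 were in the table. Aacs, which feeds ketone bodies into lipid synthesis, had 3014, 2497 and 3265 normalized counts after IC against 2377, 1699 and 2309 after vehicle. It was called higher without overlap between the groups, at a log2 fold change of 0.46 ± 0.139 (SE, DESeq2 adjusted p = 0.0425). Fads3, of the fatty acid desaturase family, had 2411, 2301 and 2220 against 1750, 1777 and 1807 and was called higher at 0.38 ± 0.098 (SE, DESeq2 adjusted p = 0.00786). The libraries of Fads3 lay close together within each group, and its IC libraries did not have the order seen in sterol synthesis.

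On these lists 5 genes were called lower, all of them outside the list of sterol synthesis. Gpam, which starts glycerolipid synthesis, had 2270, 1855 and 2180 normalized counts after IC against 2758, 3672 and 3099 after vehicle, with a log2 difference of -0.60 ± 0.124 (DESeq2 adjusted p = 0.000303). Apoe, an LXR target that carries lipids and one of the most abundant genes on these lists at 388 TPM, had 7894, 7770 and 8128 against 9331, 11275 and 11211, with a log2 difference of -0.42 ± 0.090 (DESeq2 adjusted p = 0.000501). Gramd1b, a carrier of cholesterol from the plasma membrane, the LXR target Smpdl3a and the lipoprotein receptor Vldlr were called lower at log2 fold changes of -0.58, -0.39 and -0.39. The groups of all 5 did not overlap. Lrp1, a large endocytic receptor and the most abundant gene on the lists at 1434 TPM, was not called, at a log2 fold change of -0.09.

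By role, SREBP processing and turnover had 0 of 11 genes called by DESeq2 and 0 at an unadjusted p under 0.05 with either DESeq2 or edgeR, with a median log2 fold change of -0.04. LXR partners and targets had 2 of 7 called lower, with a median log2 fold change of -0.39. With DESeq2, 4 of these 7 had an unadjusted p under 0.05, 3 of them lower and 1 higher. Sterol transport had 1 of 7 called lower and 1 at that p. Fatty acid and glycerolipid synthesis had 1 of 26 called in each direction and 5 at an unadjusted p under 0.05 with DESeq2. Oxysterol enzymes and isoprenoid use had 0 of 4 and 0 of 8 called by DESeq2, with 1 and 0 at an unadjusted p under 0.05. Over all genes tested, DESeq2 called 1.03% higher and 1.07% lower, and 9.80% had an unadjusted p under 0.05. These lists are short and were chosen with earlier results of these data known, and none was tested against those shares. Apoe and Gpam were called in all 6 fits that left out 1 library. Gramd1b was not called without IC 2 and Fads3 not without IC 1, while Aacs, Vldlr and Smpdl3a were each called in 2 of the 6, with DESeq2 adjusted p values of up to 0.340, 0.161 and 0.330. edgeR and limma-voom called none of these 7 genes.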

How the data were processed

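Counts of reads per gene were deposited for 3 IC and 3 vehicle libraries. The authors trimmed reads with Trim Galore, aligned them to mm10 with HISAT2 and counted them with featureCounts, and the versions, annotation and use of strand are not given in the sources used here. The library kit is named differently in the labels and in the methods. Each of the 6 per-sample files held the same values as the combined table. Total counts ran from 40114331 to 56714304 per library, and members had at least 76 counts in each. Genes that reached 10 counts in 3 or more libraries entered the Wald test of DESeq2 (version 1.42.0), the tool the study names, with treatment as the only term and an adjusted p under 0.05. Normalized counts are the counts of a library over its DESeq2 size factor. TPM was computed here with the length of the merged exons of all GENCODE M21 transcripts of a gene, found for 98.1% of symbols. CPM was computed from total counts. The members and gene lists were chosen with earlier results of these data known. Named are all members, those called or among the 3 highest TPM of a role by library, and of the other lipid genes those called and the 2 with the highest TPM, of which some are not reported here. Alternatives were edgeR (version 4.0.16), limma-voom (version 3.58.1), scaling by TMM or by total count, all genes kept, only genes with a mean of 100 or more, independent filtering off, 1 surrogate variable (sva version 3.50.0), a block on replicate number and each library left out. The DESeq2 test of the main fit and the edgeR test were tried on simulated counts, and the other alternatives were not.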

Additional observations from a re-analysis of the deposited data

How the results depend on the processing

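The count of members called higher (5) stayed at 5 with TMM or total-count scaling, without a count filter, with a mean of at least 100 and without independent filtering, and was 4 with 1 surrogate variable, which lost Scd2 (adjusted p 0.639). It was 0 with edgeR and 0 with limma-voom, where all genes called fell from 419 to 37 and 62. With the replicate number as a block it was 5, with 320 genes called in all. Deviations from the group means had correlations of -0.092, -0.16 and 0.025 between same-numbered libraries over 13435 genes. Differently numbered libraries were not compared in this way, so whether the numbers pair the libraries was not tested. With 1 library left out, members called higher ranged from 2 to 14, members called lower from 0 to 1 and all genes called from 282 to 671. The median log2 fold change of the members stayed positive throughout.

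Signs turned in members near 0. With 1 surrogate variable, the log2 fold change of Scap was 0.041, of Abcg1 -0.0040 and of Acaca -0.022, and with limma-voom that of Acaca was -0.0014. With a library left out, Dhcr7 ranged from -0.042 to 0.38, Scap from -0.10 to 0.056, Nr1h2 from -0.0073 to 0.13, Abcg1 from -0.031 to 0.27, Mylip from -0.056 to 0.12, Npc2 from -0.016 to 0.24, Soat1 from -0.20 to 0.0093, Acaca from -0.064 to 0.088 and Elovl6 from -0.033 to 0.28. The cause was not tested. With 3 libraries per group, standard errors of the members ran from 0.082 to 0.330, which limits what could be called.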
